A study of Homo sapiens with 46 samples.

Results

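The members examined here are genes and noncoding RNAs subject to genomic imprinting, named as MEG3, KCNQ1OT1, SNHG14, SNORD116-4, SNRPN, H19, IGF2, MEST, PEG3 and PEG10. They were taken by gene name from 4 transcript tables, 1 for each cell type, and transcripts of a gene were summed. Of the 10 genes, 9 were listed in at least 1 table, among 21183 Ensembl genes listed over all tables. MEG3, SNHG14, SNORD116-4, SNRPN, IGF2, MEST and PEG10 were listed in all 4 tables. KCNQ1OT1 was not listed in the hPSC table, H19 was listed in the mesoderm table alone, and PEG3 was listed in none, so PEG3 has no value here. The tables list 72 transcripts of the members for hPSC, 85 for ectoderm, 60 for endoderm and 59 for mesoderm.

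The libraries came from H1, an established line of human pluripotent stem cells (hPSC) kept in mTeSR1 medium, and from 3 derivatives of it collected after 5 days. Endoderm was made with WNT3A and Activin A, mesoderm with VEGF, BMP4 and bFGF plus Activin A on the first day, and ectoderm with the inhibitors A83-01, PNU-74654 and Dorsomorphin. Each cell type was fractionated in buffers with α-amanitin, and RNA was sequenced from cytoplasm, whole nucleus, chromatin and nucleoplasm, which is what remains soluble when chromatin is pelleted from nuclei. Groups held 3 libraries, apart from mesoderm nucleoplasm with 1, which entered no test. All groups share 1 cell line, and nothing in the labels says that libraries of a group came from separate cultures, so p-values measure the spread between these libraries. The design text of the series speaks of actinomycin D, but no library label names that treatment.

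Imprinted genes are expressed mainly or only from the copy inherited from 1 parent, set by DNA methylation laid down in the germ line at imprinting control regions. They lie in clusters in which long noncoding RNAs, such as H19, MEG3 and KCNQ1OT1, sit beside protein-coding genes with roles in growth, placenta and development. Imprints can be lost or eroded in cultured pluripotent stem cells. The tables carry no information on the allele of origin, so the values below are total RNA levels.

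Sequences are shown first for genes whose start site or RNA form matters to the values. The MEST pair is shown because transcripts from its upstream and downstream starts had different shares in different cell types. The SNRPN pair is shown because most of its counts came from transcripts of the downstream start. Each promoter runs from 250 bases before to 50 bases after a start, 5′ to 3′ on the plus strand, from RefSeq on GRCh38.p14, and capitals mark every CG.
MEST upstream start, chr7:130485925-130486224: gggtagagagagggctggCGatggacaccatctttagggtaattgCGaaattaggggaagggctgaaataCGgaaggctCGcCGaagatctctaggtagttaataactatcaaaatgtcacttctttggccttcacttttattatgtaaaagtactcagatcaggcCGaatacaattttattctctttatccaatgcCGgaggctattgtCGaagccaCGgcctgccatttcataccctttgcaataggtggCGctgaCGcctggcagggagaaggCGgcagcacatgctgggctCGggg
MEST downstream start, chr7:130491808-130492107: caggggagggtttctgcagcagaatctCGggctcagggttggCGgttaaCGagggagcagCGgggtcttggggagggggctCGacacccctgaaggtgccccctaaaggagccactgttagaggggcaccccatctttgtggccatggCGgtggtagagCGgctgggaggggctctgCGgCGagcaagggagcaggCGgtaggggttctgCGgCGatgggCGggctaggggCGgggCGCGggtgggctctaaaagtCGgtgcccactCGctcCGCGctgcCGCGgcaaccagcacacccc
SNRPN upstream start, chr15:24856321-24856620: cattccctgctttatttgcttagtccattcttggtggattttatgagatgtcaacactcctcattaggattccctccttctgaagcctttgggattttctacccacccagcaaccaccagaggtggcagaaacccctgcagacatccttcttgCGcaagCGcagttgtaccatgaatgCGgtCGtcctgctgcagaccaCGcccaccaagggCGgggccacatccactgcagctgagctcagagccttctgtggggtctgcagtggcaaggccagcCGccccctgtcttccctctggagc
SNRPN downstream start, chr15:24954737-24955036: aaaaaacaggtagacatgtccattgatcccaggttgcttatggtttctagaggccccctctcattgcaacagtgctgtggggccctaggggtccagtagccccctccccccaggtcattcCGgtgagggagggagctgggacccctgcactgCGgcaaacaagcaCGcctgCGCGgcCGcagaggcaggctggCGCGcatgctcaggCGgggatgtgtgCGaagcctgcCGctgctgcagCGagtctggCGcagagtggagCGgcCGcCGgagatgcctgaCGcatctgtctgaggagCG

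The downstream MEST window held 22 CG and the upstream window 13, where the median of 35116 RefSeq promoters of the same length was 14. The downstream SNRPN window held 18 CG and the upstream window 7. The letters TGCCGC, the core bound by the imprint-maintaining zinc finger protein ZFP57 when methylated, were counted on both strands. They occurred 2 times in each downstream window, 1 time in the upstream MEST window and not in the upstream SNRPN window. At least 1 match was present in 16.7% of all promoters and 2 or more in 2.75%. These matches are a description of letters, not of binding. RefSeq promoters matched 5 of the 10 members (MEG3, SNHG14, SNRPN, H19 and MEST).

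SNORD116-4, on chromosome 15 (25059538 to 25059633, plus strand, GENCODE v29 on GRCh38), is 1 of a tandem family of C/D box small nucleolar RNAs. Its RNA is shown, with capitals on the C box (ATGATGA) and D box (CTGA), since the transcripts that carry its name in these tables are not this molecule.
SNORD116-4: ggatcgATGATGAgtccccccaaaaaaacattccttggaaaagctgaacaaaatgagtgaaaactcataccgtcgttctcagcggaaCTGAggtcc
The snoRNA is 96 bases long. The tables give its name to 11 transcripts for hPSC, 6 for ectoderm, 6 for endoderm and 3 for mesoderm, and none has an Ensembl transcript ID. Their lengths, estimated from the ratio of count to TPM, the authors' length-normalized level, had medians of 7892 bases for hPSC, 14361 for ectoderm, 7777 for endoderm and 7556 for mesoderm. They belong to the assembled locus that also holds SNHG14, the long host RNA of the SNORD116 cluster. Values under the name SNORD116-4 below are therefore for long host-type transcripts, not for the small RNA.

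Library totals ran from 4990408 to 21298678 counts, and levels are given as CPM, the count per 1000000 counts of that total. The fractions did not all behave as their names say. MALAT1 and NEAT1, RNAs retained in the nucleus in most cells, were higher in cytoplasm than in nucleus in hPSC (edgeR log2 changes 1.44 ± 0.24 and 1.35 ± 0.33 SE) and ectoderm (3.04 ± 0.50 and 2.55 ± 0.28). In mesoderm NEAT1 was lower in cytoplasm, with -0.96 ± 0.23. Mitochondrial RNA took 8.09% to 16.1% of nuclear counts in the hPSC, ectoderm and endoderm libraries but 0.399% to 1.58% of their cytoplasmic counts, with the opposite order in mesoderm (1.11% to 1.36% in nucleus, 5.84% to 7.46% in cytoplasm). Of 8 messenger RNAs fixed as cytoplasmic, 7 were higher in cytoplasm in hPSC, 5 in endoderm and 8 in mesoderm, whereas in ectoderm none was and 4 were lower. Ectoderm nucleus 2 was the lowest of its group for MEG3, KCNQ1OT1, SNHG14, SNORD116-4, MEST and PEG10, and endoderm nucleus 1 for these and for IGF2. Values without a library are given where a call turns on it.

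The cell type labels were checked on fixed marker lists of 10 genes each. In cytoplasm, 8 ectoderm markers were listed in ectoderm (summed level 667 to 769 CPM) and 9 endoderm markers in endoderm (425 to 574 CPM). All 10 pluripotent markers were listed in hPSC, with a summed 6780 to 7417 CPM in cytoplasm. The sum was 2216 to 2838 CPM in ectoderm (9 listed), 4917 to 5563 CPM in endoderm (8 listed) and 2932 to 3067 CPM in mesoderm (6 listed). Of these markers, POU5F1 was 2595 to 3580 CPM in hPSC cytoplasm. It was 5.19 to 7.63 CPM in ectoderm, 1544 to 1999 CPM in endoderm and 808 to 935 CPM in mesoderm. The mesoderm label had less marker support: 5 of its markers were listed, and TBXT was at 0.117 to 0.148 CPM. Their sum was 333 to 364 CPM in cytoplasm and 241 to 266 CPM in nucleus. MIXL1, GATA4 and KDR were not listed in mesoderm, and MESP1 and MSGN1 were listed in no cell type. Of the same list, 8 were listed in endoderm, with 360.4 to 457 CPM in cytoplasm, and 5 in hPSC, with 36.7 to 40.8 CPM in cytoplasm and 401 to 472 CPM in nucleus. Ectoderm listed 4, with 43.2 to 49.1 CPM in cytoplasm. All 10 trophoblast or amnion markers were listed in mesoderm, with a summed 916 to 974 CPM in cytoplasm, beside 28.3 to 34.3 CPM in hPSC, 8.93 to 10.4 CPM in ectoderm and 222 to 289 CPM in endoderm. HAND1 is on both this list and the mesoderm list. The part of these other cell types in the mesoderm values of H19, IGF2 and the other members was not tested. As these are bulk samples, fewer cells of a type and less RNA per cell cannot be told apart.

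**Figure D1:**
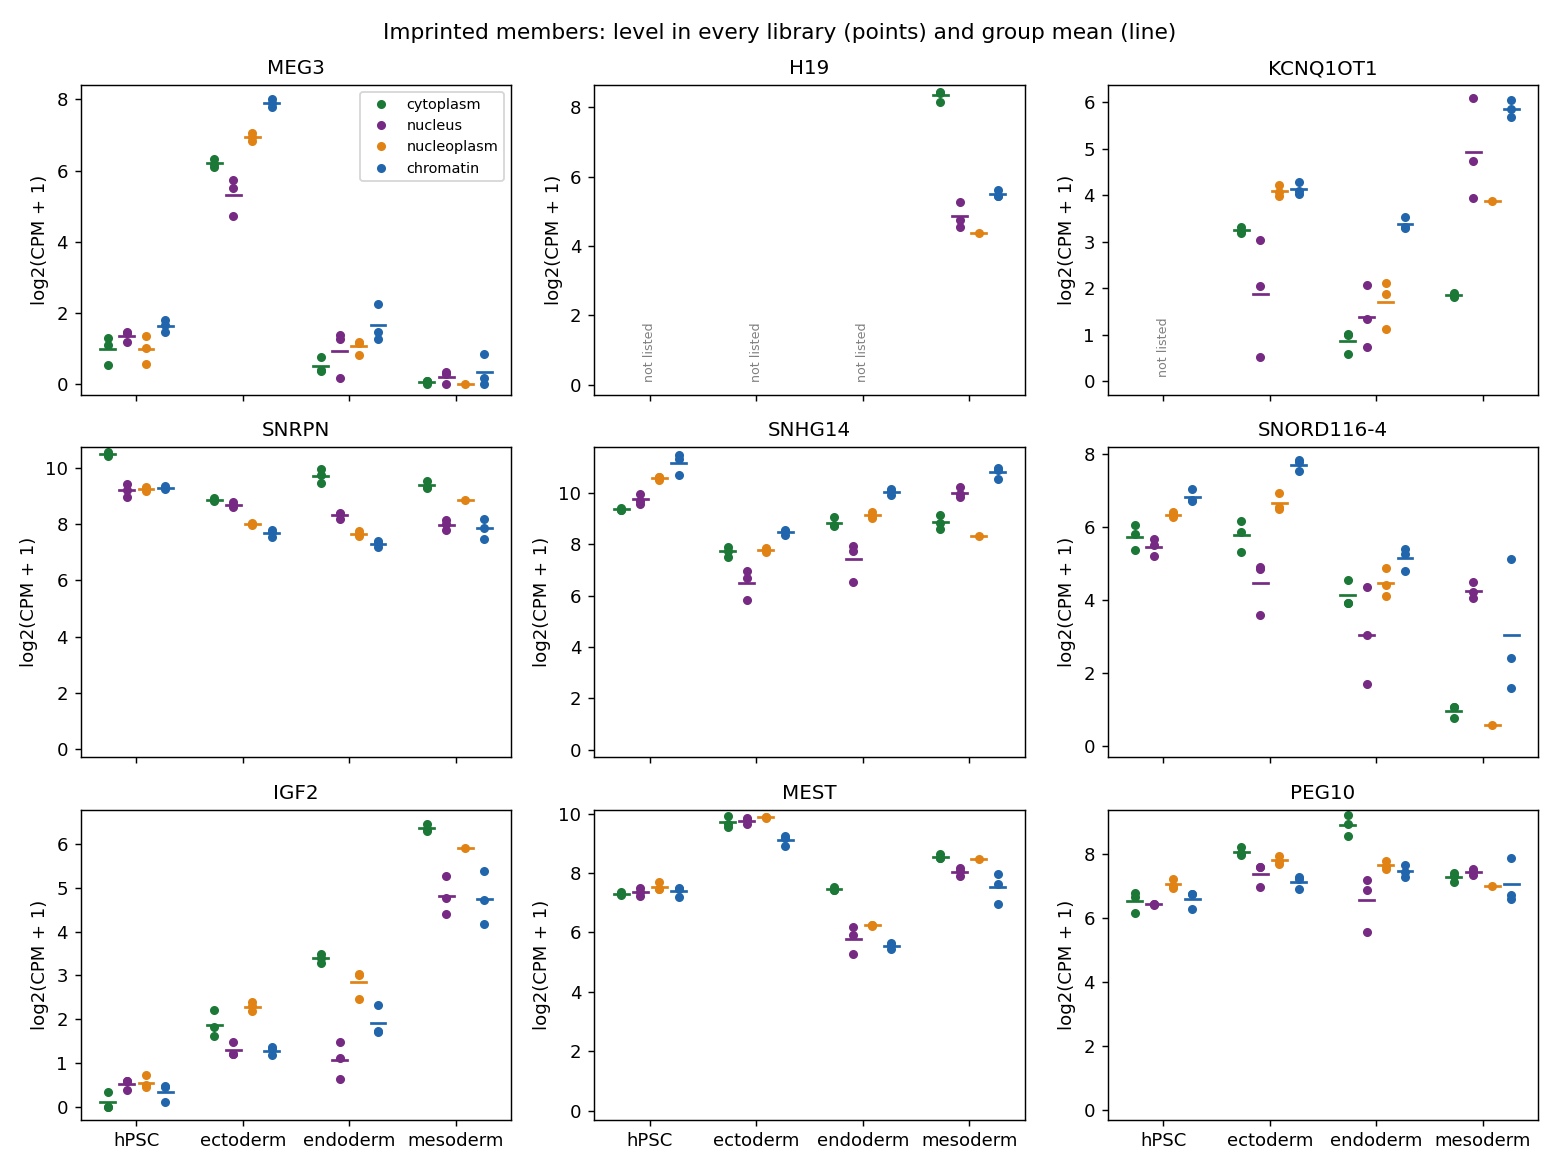
Level of each listed member in every library, as log2(CPM + 1), by cell type on the horizontal axis and fraction by colour; short lines are group means. MEG3 stood high in ectoderm alone, H19 was listed in mesoderm alone and was highest there in cytoplasm, and SNHG14 was highest in chromatin in all 4 cell types.

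MEG3 is a maternally expressed long noncoding RNA of the DLK1-DIO3 cluster on chromosome 14 (100779410 to 100861031, plus strand). In ectoderm cytoplasm its 3 libraries stood at 67.8, 72.4 and 79.0 CPM, and in hPSC cytoplasm at 1.44, 1.14 and 0.464 CPM. The groups were far apart. MEG3 passed the low-count filter of this comparison only through ectoderm, where it was higher. Its fitted change and call there are therefore not given as results. The ectoderm chromatin libraries held 256, 219 and 238 CPM, against 1.77, 2.47 and 2.18 CPM in hPSC chromatin. MEG3 was higher in ectoderm in that fraction (log2 change 6.82 ± 0.15 SE, edgeR adjusted p = 4.57e-07), as it was in nucleus (4.74 ± 0.27). The hPSC nucleoplasm libraries held 1.04, 0.499 and 1.57 CPM. There too MEG3 passed the filter only through ectoderm, so that call is not given as a result. Every ectoderm library in each fraction lay above every library of the other 3 cell types.

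MEG3 was near the limit of detection elsewhere. Endoderm chromatin held 1.79, 1.39 and 3.74 CPM and overlapped hPSC, from which it did not differ past the threshold (log2 change 0.39 ± 0.42 SE, edgeR adjusted p = 0.441). In mesoderm the 10 libraries held 15 MEG3 counts in all, and 4 of them held none. A count of 0 allows up to 0.175 CPM in mesoderm cytoplasm 2, from 3 counts. That limit covers counting error only, since the reads carry no molecular identifiers. The mesoderm chromatin libraries held 0, 0.798 and 0.128 CPM and the nucleus libraries 0.221, 0.279 and 0 CPM, beside 1.72, 1.77 and 1.27 CPM in hPSC nucleus. MEG3 did not pass the low-count filter in mesoderm alone and entered comparisons of mesoderm with hPSC only through hPSC, so those calls are not given as results. In endoderm MEG3 was lower in cytoplasm than in nucleus (log2 change -1.86 ± 0.64 SE, edgeR adjusted p = 0.0185), and this call was lost on total-count scaling (edgeR adjusted p = 0.132) and without any of 4 single libraries (edgeR adjusted p = 0.0645 to 0.109).

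Within ectoderm, MEG3 was highest on chromatin. Its mean there was 238 ± 18.3 CPM (SD, n = 3), with 112, 133 and 122 CPM in the nucleoplasm libraries and 52.6, 25.2 and 44.9 CPM in the nucleus libraries. It was higher in chromatin than in nucleoplasm (log2 change 0.67 ± 0.15 SE, edgeR adjusted p = 0.00332) and than in cytoplasm (log2 change 1.37 ± 0.15 SE, edgeR adjusted p = 5.37e-06). It was also higher in cytoplasm than in whole nucleus (log2 change 0.54 ± 0.16 SE, edgeR adjusted p = 0.0101), the direction that MALAT1 and NEAT1 took in the same libraries. The ectoderm table splits MEG3 into 12 transcripts. Their largest, without an Ensembl ID and about 8281 bases long, took 34.3% of MEG3 counts and ENST00000398461 took 26.5%.

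H19, a maternally expressed long noncoding RNA of chromosome 11p15 (1995176 to 2001470, minus strand), is strongly expressed in placenta and fetal tissue. It was listed in mesoderm alone, so no comparison with hPSC exists. The mesoderm cytoplasm libraries held 285, 346 and 342 CPM, and the nucleus libraries 22.3, 37.5 and 26.0 CPM. The lowest cytoplasmic library was well above the highest nuclear one, and H19 had the largest rise in cytoplasm of any member there (log2 change 3.64 ± 0.21 SE, edgeR adjusted p = 6.08e-07). Chromatin held 42.7, 42.1 and 47.9 CPM, also below cytoplasm (log2 change -3.11 ± 0.20 SE, edgeR adjusted p = 3.97e-06), and the single nucleoplasm library held 19.7 CPM. Both H19 transcripts listed, ENST00000414790 with 76.1% of counts and ENST00000412788 with 23.9%, were higher in cytoplasm (log2 change 3.93 ± 0.20 SE, edgeR adjusted p = 5.75e-05 for the first).

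IGF2, the paternally expressed growth factor gene next to H19 (2129112 to 2149603, minus strand), followed the order mesoderm, endoderm, ectoderm, hPSC in cytoplasm, with no overlap between neighbours. The mesoderm cytoplasm libraries held 87.8, 81.1 and 78.1 CPM. Endoderm held 10.2, 8.76 and 9.59 CPM and ectoderm 2.52, 3.61 and 2.06 CPM, while the hPSC libraries held 0, 0 and 0.265 CPM, or 4 counts in all. The 12 hPSC libraries held 54 IGF2 counts in all, and IGF2 did not pass the low-count filter in hPSC alone. It entered comparisons with hPSC only through the derivative libraries, where it was higher, so its fitted changes and calls against hPSC are not given as results. The chromatin libraries held 25.4, 17.0 and 40.8 CPM in mesoderm, 3.98, 2.28 and 2.30 CPM in endoderm, 1.48, 1.26 and 1.56 CPM in ectoderm and 0.380, 0.364 and 0.0779 CPM in hPSC, the same order without overlap.

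The IGF2 transcripts behind these sums were not the same. Of mesoderm IGF2 counts, 98.7% came from ENST00000416167 (5585 bases, starting at 2139389). Ectoderm and endoderm list ENST00000418738 alone (934 bases, starting at 2137305). In nucleus, mean TPM was above mean CPM in hPSC (0.833 and 0.435), as in ectoderm (2.12 and 1.46) and endoderm (2.14 and 1.17). Mesoderm nucleus had 14.3 TPM and 28.3 CPM. The hPSC counts therefore rest on a shorter model than the mesoderm ones. The count of a gene therefore rests on transcript models of different length in different cell types, and the order above holds for counts. Per length the mesoderm and endoderm levels were closer, at 18.0 ± 1.79 and 13.04 ± 1.13 TPM (SD, n = 3) in cytoplasm, each normalized within its own table.

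IGF2 was higher in cytoplasm than in nucleus in mesoderm and endoderm. In mesoderm the nucleus libraries held 26.6, 20.2 and 38.1 CPM, all below the cytoplasmic ones (log2 change 1.65 ± 0.28 SE, edgeR adjusted p = 0.000340). In endoderm the nucleus libraries held 0.537, 1.17 and 1.81 CPM (log2 change 2.34 ± 0.34 SE, edgeR adjusted p = 1.93e-05). Chromatin was lower than nucleoplasm in ectoderm (log2 change -1.73 ± 0.30 SE, edgeR adjusted p = 0.000506) and endoderm (log2 change -1.70 ± 0.32 SE, edgeR adjusted p = 0.000371). On the authors' TPM the mesoderm change between cytoplasm and nucleus was 0.39 and not called (limma-trend adjusted p = 0.233).

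KCNQ1OT1, a paternally expressed antisense RNA that spreads over the KCNQ1 domain of 11p15 and acts on chromatin (2608328 to 2699994, minus strand), was higher in chromatin than in cytoplasm in mesoderm and endoderm. In mesoderm the chromatin libraries held 56.9, 50.6 and 65.1 CPM and the cytoplasm libraries 2.54, 2.74 and 2.52 CPM, a clear gap (log2 change 4.23 ± 0.47 SE, edgeR adjusted p = 2.50e-05). Endoderm had the same order at lower CPM, with 8.93, 10.6 and 8.77 CPM in chromatin and 0.980, 1.03 and 0.501 CPM in cytoplasm (log2 change 3.62 ± 0.46 SE, edgeR adjusted p = 4.94e-06). In ectoderm the chromatin libraries held 15.4, 18.5 and 16.0 CPM and the cytoplasm libraries 8.97, 8.43 and 8.12 CPM, a difference that did not pass (log2 change 0.65 ± 0.43 SE, edgeR adjusted p = 0.208). By CPM the mesoderm, ectoderm and endoderm chromatin groups did not overlap, in that order. The endoderm transcript model was shorter, and per length endoderm stood above ectoderm. The chromatin libraries held 0.88, 1.19 and 0.80 TPM in endoderm and 0.37 TPM each in ectoderm. The mesoderm mean was 1.65 TPM. Each was normalized within its own table.

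Whole nucleus was less even than chromatin for KCNQ1OT1. Its mesoderm nucleus libraries held 25.8, 14.5 and 67.5 CPM, the third being the highest, and all 3 lay above cytoplasm (log2 change -3.66 ± 0.47 SE, edgeR adjusted p = 5.39e-05). Endoderm nucleus held 0.671, 3.18 and 1.54 CPM, overlapping cytoplasm (log2 change -1.70 ± 0.48 SE, edgeR adjusted p = 0.00581), and that call was lost without endoderm nucleus 2 (edgeR adjusted p = 0.0602) or when libraries were scaled to total counts (-1.06, adjusted p = 0.0932). Ectoderm nucleus held 7.24, 0.423 and 3.13 CPM, and the point estimate there was of the other sign and not called (log2 change 1.17 ± 0.49 SE, edgeR adjusted p = 0.0606). It was called higher in cytoplasm without ectoderm nucleus 1 (1.96, edgeR adjusted p = 0.00188) and without ectoderm nucleus 2 (0.65, edgeR adjusted p = 0.0464). It was also called on total counts (1.43, edgeR adjusted p = 0.0479) and without the low-count filter (1.21, edgeR adjusted p = 0.0471). The library kit (NEB Next Ultra RNA) does not mark strand, so reads of KCNQ1OT1 and of the KCNQ1 introns it overlaps cannot be told apart. Ectoderm and mesoderm list the annotated 91667-base transcript ENST00000597346, while the endoderm table lists 1 transcript without an Ensembl ID, of about 17876 bases.

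SNRPN encodes a protein of the spliceosome and lies in the paternally expressed cluster of 15q11 that is lost in Prader-Willi syndrome (24823637 to 24978723, plus strand). It was highest in hPSC. The hPSC cytoplasm libraries held 1519, 1456 and 1384 CPM, above 699, 856 and 998 CPM in endoderm, 736, 622 and 642 CPM in mesoderm and 458, 463 and 486 CPM in ectoderm. Endoderm and mesoderm overlapped each other, and every other neighbouring pair in that order was apart. SNRPN was lower than in hPSC cytoplasm in ectoderm (log2 change -1.74 ± 0.14 SE, edgeR adjusted p = 2.30e-06), mesoderm (log2 change -1.21 ± 0.12 SE, edgeR adjusted p = 3.11e-05) and endoderm (log2 change -0.94 ± 0.17 SE, edgeR adjusted p = 0.00130). In chromatin it was lower in all 3 as well, with log2 changes of -1.59 ± 0.09, -1.32 ± 0.23 and -1.74 ± 0.11 in the same order.

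SNRPN was higher in cytoplasm than in nucleus in hPSC, mesoderm and endoderm. In hPSC the nucleus libraries held 681, 504 and 596 CPM, less than a cytoplasmic library in every case (log2 change 1.23 ± 0.12 SE, edgeR adjusted p = 1.32e-06). Mesoderm nucleus held 223, 281 and 253 CPM (log2 change 1.52 ± 0.18 SE, edgeR adjusted p = 2.76e-05; on the authors' TPM the change was 0.35 and not called, limma-trend adjusted p = 0.234) and endoderm nucleus 340.4, 331 and 287 CPM (log2 change 0.67 ± 0.19 SE, edgeR adjusted p = 0.00636). In ectoderm the nucleus held 414, 438 and 391 CPM, and SNRPN did not pass the test there (log2 change -0.17 ± 0.12 SE, edgeR adjusted p = 0.249). ENST00000390687, whose start at 24954927 lies in the downstream window shown above, took 89.9% of SNRPN counts in hPSC, with 81.7% for ectoderm, 92.8% for endoderm and 90.3% for mesoderm. ENST00000400097, from the upstream window, took 7.57% in ectoderm and 2.93% in mesoderm.

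SNHG14 is the long paternally expressed transcript that continues from SNRPN through the snoRNA clusters to UBE3A, where it runs antisense (24978583 to 25419462, plus strand). It was higher in chromatin than in cytoplasm in all 4 cell types. The hPSC chromatin libraries held 2907, 2555 and 1660 CPM and the cytoplasm libraries 645, 645 and 691 CPM (log2 change 1.70 ± 0.19 SE, edgeR adjusted p = 5.34e-06). Mesoderm ran from 564, 454 and 389 CPM in cytoplasm to 1510, 2048 and 1927 CPM in chromatin (log2 change 1.76 ± 0.23 SE, edgeR adjusted p = 6.17e-05). In endoderm the chromatin libraries held 1084, 1131 and 976 CPM (log2 change 1.35 ± 0.21 SE, edgeR adjusted p = 3.93e-05) and in ectoderm 377, 366 and 334 CPM (log2 change 0.44 ± 0.16 SE, edgeR adjusted p = 0.0263). In each of the 4 cell types every chromatin library lay above every cytoplasmic one; the ectoderm call was lost without ectoderm cytoplasm 2 (edgeR adjusted p = 0.0903).

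The order of SNHG14 between whole nucleus and cytoplasm differed by cell type. It was lower in cytoplasm in mesoderm, where the nucleus libraries held 1000, 914 and 1214 CPM (log2 change -1.05 ± 0.23 SE, edgeR adjusted p = 0.00181), and in hPSC, with 836, 999 and 774 CPM in nucleus (log2 change -0.47 ± 0.18 SE, edgeR adjusted p = 0.0383). The hPSC call was lost on total-count scaling (edgeR adjusted p = 0.0666) and without hPSC nucleus 2 or any 1 of the cytoplasm libraries (adjusted p = 0.0618 to 0.159). In ectoderm nucleus SNHG14 stood at 123, 55.6 and 101 CPM, below the 240.2, 183 and 214 CPM of cytoplasm (log2 change 0.88 ± 0.16 SE, edgeR adjusted p = 0.000553). Endoderm showed the same, with 92.8, 216 and 246 CPM in nucleus and 435, 540.0 and 419.6 CPM in cytoplasm (log2 change 0.69 ± 0.21 SE, edgeR adjusted p = 0.00862). MALAT1 was also lowest in ectoderm nucleus 2 (34.2 CPM, with 303.8 and 165.7 CPM in the others) and endoderm nucleus 1 (29.01 CPM, with 275.1 and 87.1 CPM). The part of this in the SNHG14 change was not tested.

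Against hPSC, counts under the SNHG14 name fell in ectoderm in every fraction, most in nucleus (log2 change -3.17 ± 0.23 SE, edgeR adjusted p = 3.83e-06) and least in cytoplasm (log2 change -1.75 ± 0.12 SE, edgeR adjusted p = 7.64e-07). The name holds less of the 15q11 host RNA in the ectoderm table than in the hPSC one, and the gap was smaller for the sum over that locus described below. In cytoplasm the hPSC mean was 1.83 times the ectoderm mean for the sum, and 3.11 times for the SNHG14 name. The ratios were 6.24 and 9.30 in nucleus, 3.13 and 7.00 in nucleoplasm, and 2.99 and 6.62 in chromatin, and the sum was not tested. Under its name SNHG14 was lower in endoderm in all 4 fractions too, with log2 changes of -0.67 ± 0.14 in cytoplasm and -0.91 ± 0.21 in chromatin. In mesoderm it was lower in cytoplasm (log2 change -0.59 ± 0.13 SE, edgeR adjusted p = 0.00315), while nucleus (log2 change 0.08 ± 0.14 SE, edgeR adjusted p = 0.630) and chromatin (log2 change -0.25 ± 0.32 SE, edgeR adjusted p = 0.551) did not pass. SNHG14 is split into 48, 55, 39 and 41 assembled transcripts in hPSC, ectoderm, endoderm and mesoderm. Between cytoplasm and nucleus, 4 of 39 tested were lower and 1 higher in hPSC, 9 of 34 lower and 1 higher in mesoderm, 3 of 38 higher in endoderm, and 2 of 35 higher in ectoderm. Of all transcripts tested, 39.7%, 37.5%, 42.1% and 13.7% were called in the same order.

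The long transcripts named SNORD116-4 differed most in mesoderm. Its cytoplasm libraries held 1.11, 0.700 and 1.11 CPM, against 40.1, 54.9 and 65.0 CPM in hPSC (log2 change -5.87 ± 0.25 SE, edgeR adjusted p = 2.58e-07). The mesoderm nucleus libraries held 15.6, 17.7 and 21.4 CPM, far above cytoplasm (log2 change -4.11 ± 0.87 SE, edgeR adjusted p = 0.00166), but the chromatin libraries scattered at 2.00, 34.0 and 4.37 CPM. Only the second was high. In ectoderm chromatin the libraries held 224, 184 and 216 CPM, above the 130.4, 105 and 103 CPM of hPSC (log2 change 0.91 ± 0.13 SE, edgeR adjusted p = 0.000471), and above ectoderm cytoplasm at 71.2, 57.4 and 39.1 CPM (log2 change 1.58 ± 0.25 SE, edgeR adjusted p = 0.000114). The ectoderm order over hPSC holds for counts, since median transcript lengths under the name were 14361 bases in ectoderm and 7892 in hPSC. Per length the chromatin libraries of the pair overlapped, with means of 28.7 ± 5.03 TPM in ectoderm and 25.7 ± 3.02 TPM in hPSC (SD, n = 3). In cytoplasm the ectoderm mean was lower per length, at 3.92 TPM against 7.51 TPM in hPSC, each normalized within its own table. In endoderm the name was lower than in hPSC in all 4 fractions, with 14.2, 22.5 and 14.2 CPM in cytoplasm (log2 change -1.82 ± 0.22 SE, edgeR adjusted p = 8.30e-05). The log2 change in nucleus was -1.85 (edgeR adjusted p = 0.0140), and -2.82 without endoderm nucleus 3. When the fit was limited to genes listed in all 4 tables, the ectoderm chromatin call was lost (edgeR adjusted p = 0.182) and so was the endoderm one (edgeR adjusted p = 0.0549).

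Which name a 15q11 transcript received differed between the separately assembled tables, so the whole host RNA was also summed, a description chosen after the values were seen. The sum holds SNHG14, the SNORD116, SNORD107 and SNORD115 names and the PWAR names. SNHG14 was 91.4% of it in hPSC, 88.4% in endoderm and 85.5% in mesoderm, but 45.6% in ectoderm, where SNORD116-4 was 19.3%, PWAR5 17.9% and SNORD107 14.9%. In mesoderm SNORD116-26 held 8.91% and SNORD116-4 0.811%. The sum in chromatin was 2548 ± 664 CPM in hPSC, 2162 ± 312 in mesoderm, 1200 ± 107 in endoderm and 852 ± 43.6 in ectoderm (SD, n = 3). In mesoderm cytoplasm it was 527 ± 91.0 CPM, against 776 ± 39.1 CPM in hPSC, a smaller gap than under the name SNORD116-4 alone.

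**Figure D2:**
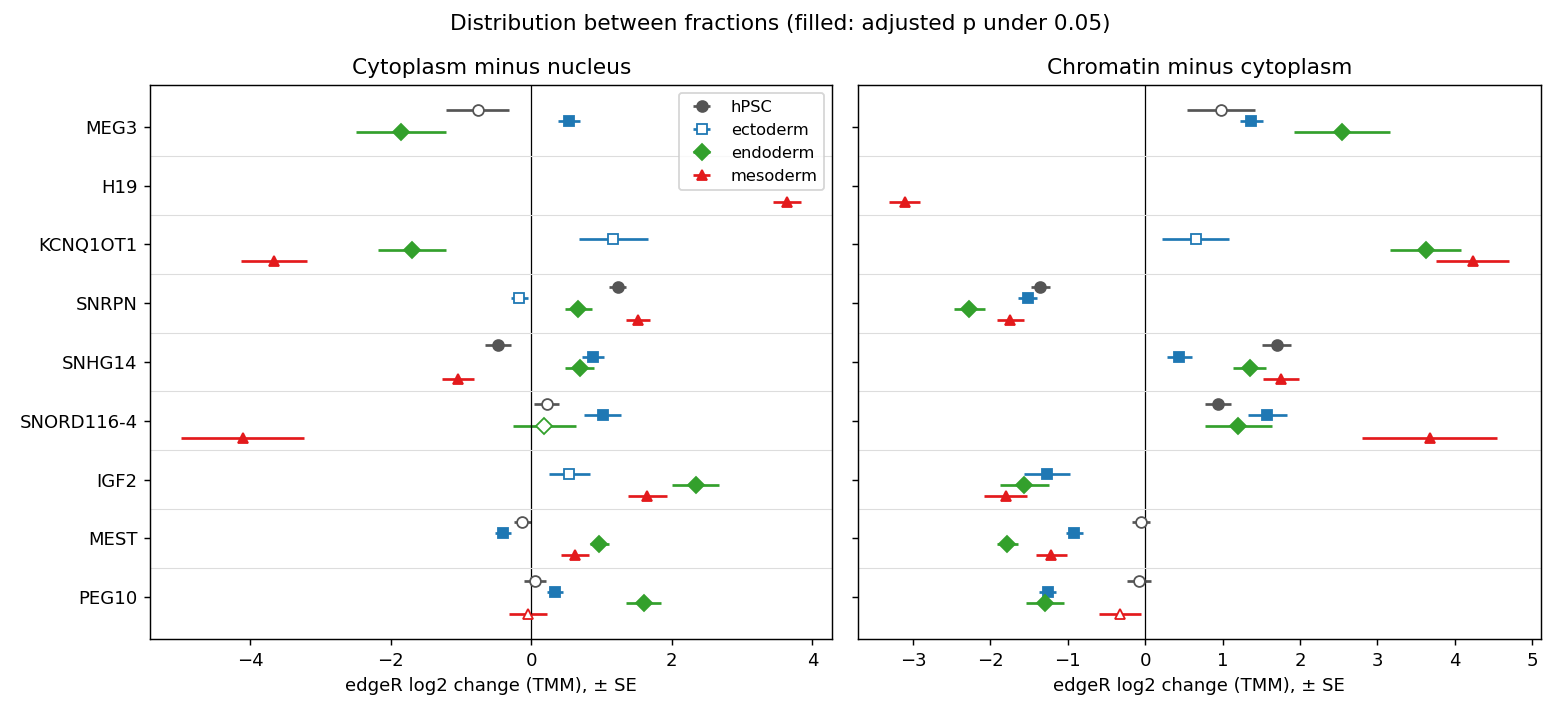
edgeR log2 change (horizontal axis, ± SE) between cytoplasm and nucleus, left, and between chromatin and cytoplasm, right, for each member and cell type; filled symbols passed adjusted p under 0.05. In the right panel MEG3, KCNQ1OT1, SNHG14 and SNORD116-4 lie on the chromatin side in every cell type in which they were tested, and H19, SNRPN, IGF2, MEST and PEG10 on the cytoplasmic side, although 4 of those 9 members have at least 1 cell type that was not called.

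MEST, the paternally expressed mesoderm-specific transcript gene on chromosome 7 (130486171 to 130506465, plus strand), encodes a hydrolase-fold protein. It was highest in ectoderm. The ectoderm cytoplasm libraries held 957, 744 and 811 CPM, followed by mesoderm with 399, 360.4 and 366 CPM, endoderm with 173, 185 and 170.3 CPM and hPSC with 156, 153 and 164 CPM, without overlap. It was higher than in hPSC cytoplasm in ectoderm (log2 change 2.29 ± 0.12 SE, edgeR adjusted p = 1.94e-07) and in mesoderm (log2 change 1.17 ± 0.09 SE, edgeR adjusted p = 7.53e-06). Endoderm did not differ from hPSC past the threshold in cytoplasm (log2 change -0.00 ± 0.11 SE, edgeR adjusted p = 0.982), and was lower in nucleus (log2 change -1.16 ± 0.18 SE, edgeR adjusted p = 0.000751) and chromatin (log2 change -1.61 ± 0.15 SE, edgeR adjusted p = 5.49e-05). The endoderm nucleus libraries held 37.5, 59.7 and 72.1 CPM, against 165, 148 and 179.6 CPM in hPSC.

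The share of MEST counts from each start site differed between cell types. Transcript ENST00000223215 begins at 130492058, in the downstream window shown above, and ENST00000341441 at 130486171, in the upstream one. The downstream transcript took 21.8% of MEST counts in hPSC, 64.1% in ectoderm and 50.3% in mesoderm. The endoderm table does not list it: ENST00000341441 took 89.4% there and a transcript without an Ensembl ID, of about 2404 bases, the other 10.6%. In chromatin the downstream share was 21.2 ± 2.48% in hPSC and 68.8 ± 2.97% in ectoderm (SD, n = 3), with every ectoderm library above every hPSC one. In ectoderm another transcript, ENST00000416162, which begins within a few bases of the upstream start, took 4.96%. These shares are estimates that divide reads common to both transcripts, and the tables were assembled separately.

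**Figure D3:**
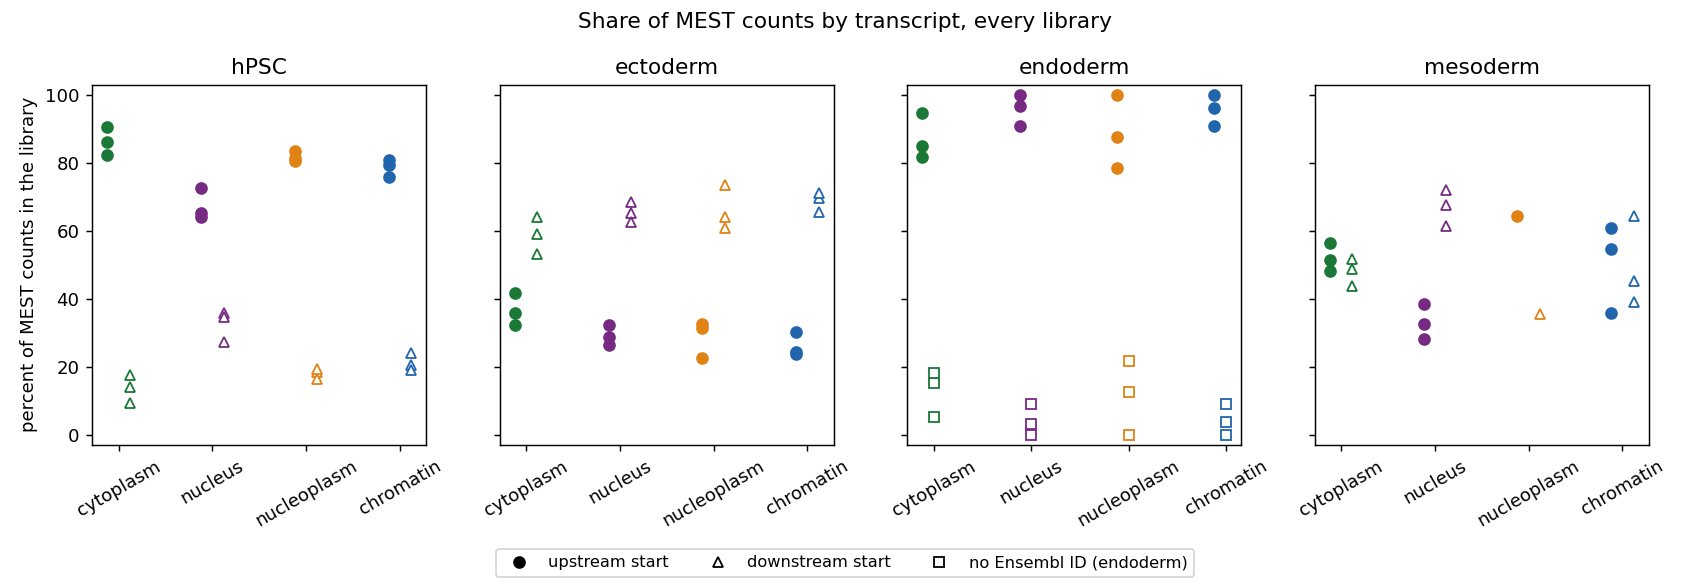
Share of MEST counts (vertical axis, percent) held by the transcript from the upstream start (filled circles), the downstream start (open triangles) or, in endoderm, a transcript without an Ensembl ID (open squares), by fraction, with 1 symbol a library; ENST00000416162 of ectoderm is not drawn. In ectoderm the downstream start led in every library, and in hPSC the upstream start did.

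Fractions differed in their MEST transcripts as well. In hPSC the downstream transcript took 32.6 ± 4.66% of nuclear and 13.6 ± 4.07% of cytoplasmic MEST counts (SD, n = 3), and fell in cytoplasm (log2 change -1.33 ± 0.25 SE, edgeR adjusted p = 0.00181). The upstream transcript did not pass (log2 change 0.26 ± 0.13 SE, edgeR adjusted p = 0.145). In mesoderm the downstream share was 67.0 ± 5.21% in nucleus and 48.1 ± 4.14% in cytoplasm. There the upstream transcript rose in cytoplasm (log2 change 1.50 ± 0.31 SE, edgeR adjusted p = 0.00741) and the downstream one did not pass (log2 change 0.36 ± 0.25 SE, edgeR adjusted p = 0.296). In ectoderm the downstream transcript was lower in cytoplasm (log2 change -0.57 ± 0.13 SE, edgeR adjusted p = 0.0144). Whether the pair differ in their response was not tested directly.

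As a gene sum, MEST was higher in cytoplasm than in nucleus in endoderm (log2 change 0.97 ± 0.14 SE, edgeR adjusted p = 1.74e-05) and mesoderm (log2 change 0.63 ± 0.20 SE, edgeR adjusted p = 0.0169), and lower in ectoderm (log2 change -0.40 ± 0.11 SE, edgeR adjusted p = 0.00795). The ectoderm call depended on scaling, at -0.06 on total counts (edgeR adjusted p = 0.737). The mesoderm call was also lost on total counts (0.51, edgeR adjusted p = 0.0667), and on the authors' TPM its direction turned (-0.50, limma-trend adjusted p = 0.0892). Chromatin was below nucleoplasm in ectoderm, with 583, 477 and 602 CPM against 946, 948 and 913 CPM (log2 change -1.05 ± 0.11 SE, edgeR adjusted p = 2.03e-05), and in endoderm (log2 change -1.28 ± 0.14 SE, edgeR adjusted p = 2.64e-06).

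PEG10, a paternally expressed gene of chromosome 7 derived from a retrotransposon and needed for the placenta (94656325 to 94669695, plus strand), was highest in endoderm in cytoplasm. The endoderm cytoplasm libraries held 592, 491 and 374 CPM, above ectoderm with 297, 248 and 262 CPM, mesoderm with 169, 159 and 140.4 CPM and hPSC with 71.2, 99.5 and 110.3 CPM. Each neighbour in that order was apart. In the other fractions the leading groups overlapped. Nuclear means were 174 CPM in mesoderm, 170.0 CPM in ectoderm and 103 CPM in endoderm. In nucleoplasm ectoderm (224 CPM) stood beside endoderm (201 CPM), and in chromatin endoderm (177 CPM) beside mesoderm (146 CPM). PEG10 was higher than in hPSC cytoplasm in endoderm (log2 change 2.20 ± 0.20 SE, edgeR adjusted p = 9.65e-06), ectoderm (log2 change 1.41 ± 0.15 SE, edgeR adjusted p = 2.16e-05) and mesoderm (log2 change 0.65 ± 0.15 SE, edgeR adjusted p = 0.00499). Endoderm nucleus held 46.5, 118 and 145 CPM, all below cytoplasm (log2 change 1.60 ± 0.24 SE, edgeR adjusted p = 3.71e-05). In hPSC the cytoplasm and nucleus overlapped, with 86.0, 86.5 and 84.1 CPM in nucleus (log2 change 0.06 ± 0.16 SE, edgeR adjusted p = 0.758). Transcript ENST00000482108 took over 99% of its counts outside ectoderm, where it took 75.0% and a transcript matched to ENST00000612748 the other 25.0%.

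Levels of different members can be compared only per length. In hPSC cytoplasm the mean TPM was 1221 ± 111 for SNRPN, 111 ± 10.8 for SNHG14, 71.2 ± 10.6 for MEST, 14.6 ± 4.77 for PEG10 and 7.51 ± 2.73 for the SNORD116-4 name, with MEG3 at 0.27 ± 0.18 (SD, n = 3). In mesoderm cytoplasm H19 stood at 176 ± 18.3 TPM, close to MEST at 184 ± 17.3 TPM, and KCNQ1OT1 at 0.04 ± 0.01 TPM. SNRPN had the highest level per length of the members in both.

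Over the members, cytoplasm against nucleus gave 1 higher and 1 lower of 6 tested in hPSC (of all genes 65.4% were called, 35.0% higher and 30.3% lower). It gave 4 higher and 1 lower of 8 tested in ectoderm (of all genes 53.7% were called, 27.2% higher and 26.5% lower). In endoderm it gave 5 higher and 2 lower of 8 tested (of all genes 69.7% were called, 34.3% higher and 35.4% lower). Mesoderm gave 4 higher and 3 lower of 8 tested (of all genes 65.2% were called, 33.2% higher and 32.0% lower). Chromatin against cytoplasm gave 2 higher and 1 lower of 6 tested in hPSC (of all genes 63.4% were called, 35.2% higher and 28.2% lower) and 3 higher and 4 lower of 8 tested in ectoderm (of all genes 60.7% were called, 29.0% higher and 31.7% lower). It gave 4 higher and 4 lower of 8 tested in endoderm (of all genes 73.0% were called, 37.7% higher and 35.3% lower) and 3 higher and 4 lower of 8 tested in mesoderm (of all genes 68.0% were called, 33.2% higher and 34.7% lower). MEG3, KCNQ1OT1, SNHG14 and SNORD116-4 made up every member called higher in chromatin there, and messenger RNAs and H19 every member called lower. Chromatin against nucleoplasm gave 0 higher and 2 lower of 6 tested in hPSC (of all genes 30.4% were called, 17.1% higher and 13.3% lower), 3 higher and 4 lower of 8 tested in ectoderm (of all genes 44.1% were called, 18.5% higher and 25.7% lower) and 1 higher and 4 lower of 8 tested in endoderm (of all genes 53.4% were called, 22.9% higher and 30.6% lower). Most genes were called in most comparisons, so the number of members called says little beside that background, and a member that passed the count filter through 1 group had to differ.

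Direction depends on how libraries are scaled. Scaling to total counts moved the median change of all genes between cytoplasm and nucleus by 0.34 in ectoderm and 0.70 in endoderm on the log2 scale, and the share of calls that were higher from 50.7% to 76.4% and from 49.2% to 71.4%. For chromatin against nucleoplasm that share was 56.3% in hPSC and became 86.5%, the ectoderm share went from 41.8% to 71.0%, and the endoderm share from 42.8% to 73.8%. For chromatin against cytoplasm it went from 47.8% to 64.9% in ectoderm and from 48.9% to 59.2% in mesoderm. Against hPSC it moved in endoderm from 51.2% to 65.9% in cytoplasm, from 51.1% to 30.98% in nucleus, from 50.3% to 38.2% in chromatin and from 49.5% to 28.0% in nucleoplasm, and in mesoderm nucleus from 49.9% to 60.0%. No member's direction turned under this scaling among those called.

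Against hPSC in cytoplasm the members gave 4 higher and 2 lower of 7 tested in ectoderm (of all genes 73.2% were called, 36.6% higher and 36.6% lower) and 2 higher and 3 lower of 7 tested in endoderm (of all genes 50.9% were called, 26.0% higher and 24.8% lower). Mesoderm gave 3 higher and 3 lower of 6 tested (of all genes 65.9% were called, 33.5% higher and 32.4% lower). In nucleus the ectoderm gave 4 higher and 3 lower of 7 tested (of all genes 63.9% were called, 31.4% higher and 32.5% lower), the endoderm 0 higher and 3 lower of 6 tested (of all genes 51.1% were called, 26.1% higher and 25.0% lower) and the mesoderm 3 higher and 3 lower of 7 tested (of all genes 70.8% were called, 35.3% higher and 35.5% lower). In chromatin the ectoderm gave 5 higher and 2 lower of 7 tested (of all genes 69.7% were called, 35.3% higher and 34.4% lower), the endoderm 2 higher and 4 lower of 7 tested (of all genes 63.6% were called, 32.0% higher and 31.6% lower) and the mesoderm 1 higher and 3 lower of 7 tested (of all genes 42.7% were called, 23.2% higher and 19.4% lower). In nucleoplasm the ectoderm gave 5 higher and 2 lower of 7 tested (of all genes 79.3% were called, 39.4% higher and 39.9% lower) and the endoderm 2 higher and 4 lower of 7 tested (of all genes 77.5% were called, 38.4% higher and 39.1% lower). These comparisons share the hPSC libraries. IGF2 is among the higher members where it was tested. MEG3 is among the higher ones in ectoderm cytoplasm and nucleoplasm, and among the lower ones in mesoderm nucleus and chromatin. Each passed the low-count filter there only through the group where it was higher, so these calls were fixed by the filter. The ectoderm nucleus count includes SNRPN (-0.42, edgeR adjusted p = 0.0480), a call lost without hPSC nucleus 1 or 3 or ectoderm nucleus 1 or 3 (edgeR adjusted p = 0.131 to 0.243). The endoderm nucleus count was 6 without endoderm nucleus 1, when SNRPN (-0.71, edgeR adjusted p = 0.000969) and PEG10 (0.85, edgeR adjusted p = 4.46e-05) also passed.

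**Figure D4:**
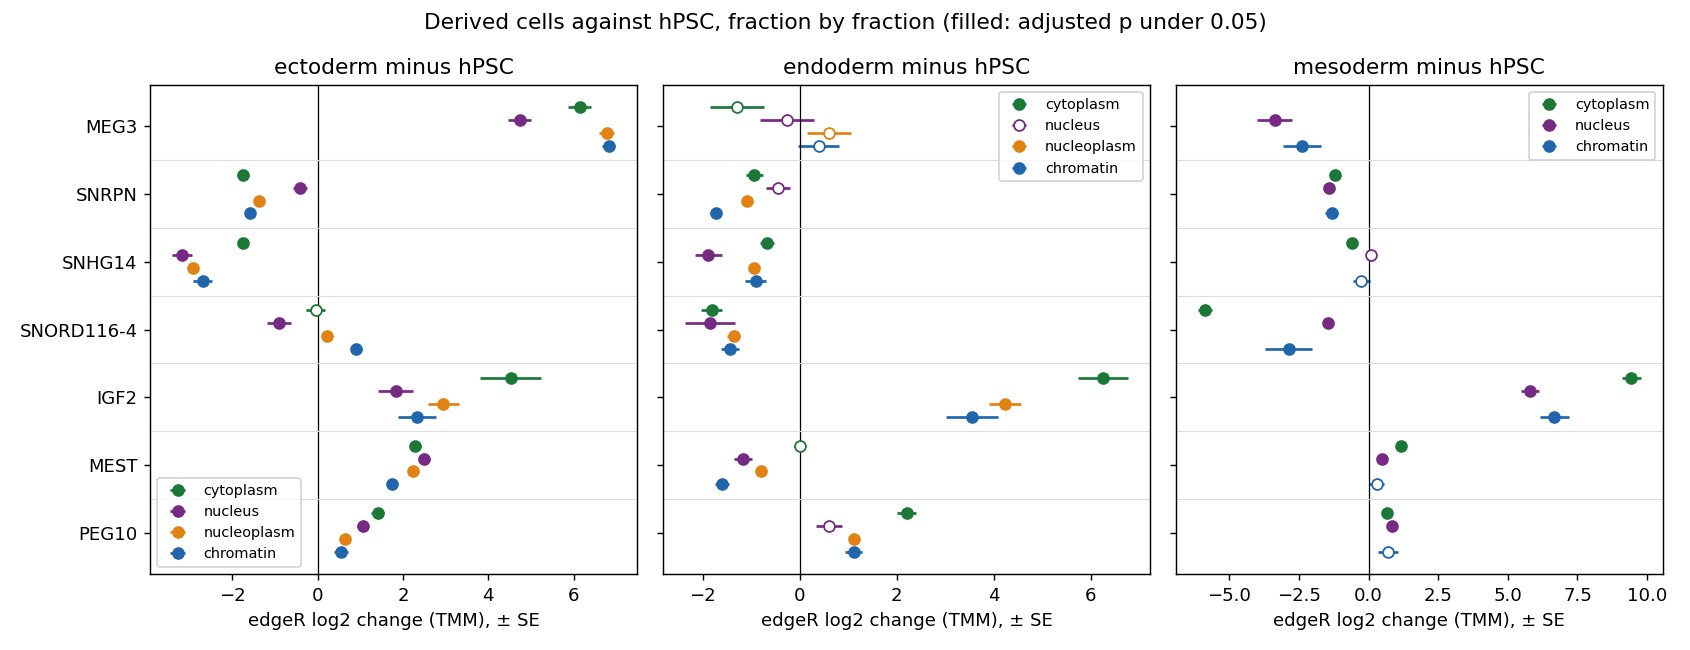
edgeR log2 change against hPSC (horizontal axis, ± SE) in ectoderm, endoderm and mesoderm for the members listed in all 4 tables, with fractions by colour; filled symbols passed adjusted p under 0.05. IGF2, drawn where it was tested, passed the low-count filter only through the derivatives, as MEG3 in mesoderm did only through hPSC. In ectoderm cytoplasm and nucleoplasm MEG3 passed it only through ectoderm. SNRPN lies left of 0 in every fraction and cell type shown.

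Whether the change between cytoplasm and nucleus itself differed from that in hPSC was tested as an interaction. In ectoderm the members gave 3 higher and 1 lower of 7 tested (of all genes 49.0% were called, 27.2% higher and 21.7% lower). Endoderm gave 4 higher and 0 lower of 7 tested (of all genes 25.2% were called, 12.9% higher and 12.3% lower) and mesoderm 2 higher and 1 lower of 7 tested (of all genes 38.0% were called, 25.2% higher and 12.8% lower). IGF2 is among the higher members in each of these counts. It passed the low-count filter only through the derivative libraries, so its part of the counts is not a result. On total counts the share of all calls that were higher went in endoderm from 51.2% to 93.0%, while mesoderm went from 66.3% to 39.5%. The SNRPN change was smaller in ectoderm than in hPSC (log2 change -1.23 ± 0.20 SE, edgeR adjusted p = 0.000351). The SNHG14 change was shifted to the cytoplasm in ectoderm (log2 change 1.50 ± 0.27 SE, edgeR adjusted p = 0.000639) and endoderm (log2 change 1.20 ± 0.31 SE, edgeR adjusted p = 0.0142). PEG10 in endoderm (log2 change 1.58 ± 0.36 SE, edgeR adjusted p = 0.00757) and MEST in endoderm (log2 change 1.14 ± 0.21 SE, edgeR adjusted p = 0.00280) and mesoderm (log2 change 0.82 ± 0.14 SE, edgeR adjusted p = 0.000510) were shifted the same way. The SNORD116-4 name was shifted to the nucleus in mesoderm (log2 change -4.27 ± 0.31 SE, edgeR adjusted p = 2.73e-07). That name covers 11 assembled transcripts in hPSC and 3 in mesoderm, so different transcripts were compared. The 15q11 sum, not tested, moved less. Its means were 776 CPM in cytoplasm and 939 CPM in nucleus in hPSC, and 527 and 1245 CPM in mesoderm.

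Other imprinted genes were taken from a list of 60 symbols and the names of imprinted small RNA families. Of these, 28 list genes were listed for hPSC, 36 for ectoderm, 27 for endoderm and 33 for mesoderm. Between cytoplasm and nucleus 8 of 32 list entries tested were higher and 13 lower in hPSC (list median log2 change -0.21, all genes 0.10; of all genes 65.4% were called, 35.0% higher and 30.3% lower). In ectoderm 8 of 37 were higher and 12 lower (-0.10, all genes 0.01; of all genes 53.7% were called, 27.2% higher and 26.5% lower). Endoderm gave 6 of 27 higher and 10 lower (-0.39, all genes 0.01; of all genes 69.7% were called, 34.3% higher and 35.4% lower), and mesoderm 5 of 37 and 16 (-0.42, all genes 0.01; of all genes 65.2% were called, 33.2% higher and 32.0% lower). IGF2R, the receptor that clears IGF2, was among the largest falls in all 4 cell types. In hPSC it stood at 26.3 ± 4.93 against 579 ± 71.5 CPM (SD, n = 3; edgeR log2 change -4.53, adjusted p = 1.86e-10) in cytoplasm against nucleus. The ectoderm levels were 57.6 ± 6.13 against 115 ± 20.7 CPM (SD, n = 3; edgeR log2 change -1.33, adjusted p = 1.23e-07). Endoderm had 42.9 ± 5.63 against 740.5 ± 117 CPM (SD, n = 3; edgeR log2 change -4.87, adjusted p = 1.95e-09) and mesoderm 53.4 ± 7.86 against 514 ± 42.1 CPM (SD, n = 3; edgeR log2 change -3.16, adjusted p = 1.92e-06). SLC22A18, a transporter gene of 11p15, fell in hPSC (2.75 ± 0.169 against 23.3 ± 2.41 CPM, SD, n = 3, edgeR log2 change -3.15, adjusted p = 6.38e-09). GNAS, which encodes the stimulatory G protein alpha subunit, rose in hPSC (983 ± 51.4 against 536 ± 86.4 CPM, SD, n = 3, edgeR log2 change 0.81, adjusted p = 4.34e-05) and in mesoderm (1675 ± 145 against 742 ± 32.7 CPM, SD, n = 3, edgeR log2 change 1.29, adjusted p = 0.000102). The nuclear antisense RNA DIO3OS in endoderm was 1.61 ± 0.549 against 50.0 ± 18.9 CPM (SD, n = 3; edgeR log2 change -5.60, adjusted p = 5.07e-10). DLK1, the paternally expressed neighbour of MEG3, was 4158 ± 211 against 6130 ± 598 CPM (SD, n = 3; edgeR log2 change -0.92, adjusted p = 0.00117) in ectoderm, where MEG3 was high.

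Against hPSC in cytoplasm 16 of 27 list entries tested were higher and 7 lower in ectoderm (list median log2 change 0.42, all genes 0.00; of all genes 73.2% were called, 36.6% higher and 36.6% lower). In endoderm 8 of 22 were higher and 4 lower (0.10, all genes -0.01; of all genes 50.9% were called, 26.0% higher and 24.8% lower). Mesoderm gave 11 of 28 higher and 7 lower (0.26, all genes 0.01; of all genes 65.9% were called, 33.5% higher and 32.4% lower). CDKN1C, a maternally expressed inhibitor of the cell cycle in the KCNQ1OT1 domain, rose in all 3 derivatives, with 148 ± 32.7 against 1.20 ± 0.444 CPM (SD, n = 3; edgeR log2 change 6.85, adjusted p = 3.22e-08) in endoderm, 35.8 ± 10.1 against 1.20 ± 0.444 CPM (SD, n = 3; edgeR log2 change 4.85, adjusted p = 3.20e-07) in ectoderm and 30.5 ± 0.851 against 1.20 ± 0.444 CPM (SD, n = 3; edgeR log2 change 4.66, adjusted p = 3.67e-07) in mesoderm. NNAT, a paternally expressed membrane protein of neural tissue, rose in ectoderm (443 ± 35.4 against 55.6 ± 7.91 CPM, SD, n = 3, edgeR log2 change 2.89, adjusted p = 1.41e-07) and fell in mesoderm (30.9 ± 0.622 against 55.6 ± 7.91 CPM, SD, n = 3, edgeR log2 change -0.92, adjusted p = 0.000142). GRB10, an adaptor of growth factor receptors, fell in ectoderm (43.9 ± 1.62 against 125 ± 24.7 CPM, SD, n = 3, edgeR log2 change -1.61, adjusted p = 8.19e-06) and mesoderm (46.4 ± 5.98 against 125 ± 24.7 CPM, SD, n = 3, edgeR log2 change -1.52, adjusted p = 2.98e-05). PPP1R9A, an actin-binding protein next to PEG10, rose in ectoderm (43.4 ± 7.14 against 2.83 ± 1.21 CPM, SD, n = 3, edgeR log2 change 3.74, adjusted p = 7.29e-07), and OSBPL5 rose in mesoderm (23.0 ± 1.43 against 4.87 ± 0.864 CPM, SD, n = 3, edgeR log2 change 2.13, adjusted p = 6.24e-06).

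Genes whose pattern was most like that of a member were ranked by Pearson's r of log2(CPM + 1) over the 46 libraries, among 9186 genes listed in all 4 tables with a mean of at least 10 CPM. For MEG3 the most like was LINC00910 (r = 0.95). For SNRPN the 3 most like were PSMB4 (0.98), RNASEH2A (0.98) and RAN (0.97), and for SNHG14 TTF2 (0.95), PARP14 (0.95) and AUTS2 (0.93). IGF2 was most like PRKCH (0.96), KIFAP3 (0.93) and EPAS1 (0.93), and MEST most like ZNF521 (0.94), INPP5D (0.94) and TXNIP (0.94). PEG10 was most like EML1 (0.87), ANKMY2 (0.84) and LDAH (0.81), and the SNORD116-4 name most like ANK2 (0.93), WDR35 (0.86) and MTF1 (0.86). These are descriptions: libraries of a group and fraction share their source, and each gene was picked as the highest of many.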

How the data were processed

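RNA of 46 libraries from subcellular fractions of H1 cells and 3 derivatives was measured by sequencing. The deposited tables hold expected counts and TPM per assembled transcript, which the authors made with STAR and RSEM on hg38, per the submitters' processing notes. Each cell type has its own assembly, so TPM was normalized separately in each table and was not compared by test between cell types. The role of each tool is not given in the sources used here, nor are versions. A column of values that matched no sample was not used (1 column).

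Expected counts were summed by Ensembl gene and tested with the quasi-likelihood F test of edgeR 4.0.16 (R 4.3.3) with TMM factors and filterByExpr at a minimum count of 10. P-values were adjusted by Benjamini-Hochberg over all features, with a threshold of 0.05. Each standard error is the log2 change over the square root of F. Comparisons with hPSC used genes listed in both tables. Alternatives were DESeq2 1.42.0, total-count scaling, no low-count filter, limma-trend 3.58.1 on the authors' log2(TPM + 1), genes listed in all 4 tables, a replicate block, and leaving out each library. Among 45 replicate pairs none was identical, and all differed beyond sampling noise (chi-squared at least 4.58 times its degrees of freedom). On simulated hPSC counts of 14080 genes, edgeR recovered 46% of 2-fold and 99% of 4-fold changes between cytoplasm and nucleus, and 7.05% of its calls were unchanged genes. The simulation changed 100 genes by each fold and gave all genes the same dispersion. In the real comparison 65.4% of genes were called, so these shares are not error rates of the real calls.

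All members are named. Transcripts with at least 10% of a gene's counts are named, with others where a start site is described. Of the other imprinted genes with a mean of at least 10 CPM, the 3 with the largest change in each direction qualified for naming, and only some are described. One gene of similar pattern to MEG3 is not reported here. The members and lists were chosen with earlier results of these data known. Coordinates and transcripts are GENCODE v29 on GRCh38. The library kit does not mark strand, so reads of overlapping antisense genes, such as SNHG14 and UBE3A, cannot be told apart. Python 3.11.15, pandas 2.3.3 and scipy 1.17.1 were used.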

Additional observations from a re-analysis of the deposited data

Results flagged for a closer look

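For these members the change between cytoplasm and nucleus differed from that in hPSC by an edgeR interaction test. In ectoderm the difference was 1.48 ± 0.44 SE for MEG3 on the log2 scale, 1.50 ± 0.27 for SNHG14 and -1.23 ± 0.20 for SNRPN. The edgeR adjusted p-values were 0.0141, 0.000639 and 0.000351 in that order. In endoderm it was 1.14 ± 0.21 for MEST, 1.58 ± 0.36 for PEG10 and 1.20 ± 0.31 for SNHG14, with edgeR adjusted p-values of 0.00280, 0.00757 and 0.0142. In mesoderm it was 0.82 ± 0.14 for MEST and -4.27 ± 0.31 for SNORD116-4, with edgeR adjusted p-values of 0.000510 and 2.73e-07. The SNORD116-4 name covers different assembled transcripts in hPSC and mesoderm, 11 and 3 of them. IGF2 was flagged as well, at 2.78 ± 0.92 in ectoderm, 4.45 ± 0.87 in endoderm and 3.77 ± 0.83 in mesoderm. It passed the low-count filter here only through the derivative libraries, so these calls are not given as results. Its differences rest on 4 counts in hPSC cytoplasm, and the ectoderm one was lost without hPSC nucleus 3, hPSC cytoplasm 2 or ectoderm cytoplasm 2 (edgeR adjusted p = 0.0592, 0.0727 and 0.0512). The part of depth, fraction purity or other cell types in these differences was not tested.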

How the results depend on the processing

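Of the single-member results on gene sums, 1934 recomputed values kept their side of the threshold, 41 gained a call, 79 lost one and 8 turned direction with a call in at least 1 of the fits. Of the 1934, 43 called in neither fit changed the sign of their estimate, 4 of them on TPM and 39 elsewhere. For member transcripts the counts were 1127 (49 with a changed sign), 33, 131 and 6. DESeq2 changed 2 gene-sum calls and the unfiltered fit 2. Same-numbered libraries were not taken as pairs: in 0 of 25 comparisons did every pair correlate above 0.1, although in 3 of them every sample of 1 group correlated best with its own number in the other. The replicate block changed 1 call, SNRPN in ectoderm against hPSC nucleus (-0.43, edgeR adjusted p = 0.107), which was lost in 7 of 11 alternatives, and took the member transcripts called between hPSC chromatin and nucleoplasm from 8 to 3; it changed no other gene-sum call.

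Every turn of direction that involved a call came with the authors' TPM (limma-trend). For chromatin against nucleoplasm these were MEST in hPSC (0.18, and 0.13 for its upstream transcript), SNRPN in hPSC (0.38, and 0.43 for its main transcript) and SNRPN in ectoderm (0.085, with 0.049 for its main and 0.022 for its upstream transcript). For chromatin against cytoplasm they were MEST (0.82) and PEG10 (0.76) in hPSC, MEST in ectoderm (0.19) and PEG10 in mesoderm (0.73). Between mesoderm cytoplasm and nucleus they were MEST (-0.50), its downstream transcript (-1.002) and the main PEG10 transcript (-1.16). The cause was not tested.

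Members called between hPSC cytoplasm and nucleus went from 2 to 1 on total counts and to 4 on TPM. On TPM, chromatin against nucleoplasm went from 2 to 4 in hPSC and from 7 to 4 in ectoderm, and hPSC chromatin against cytoplasm from 3 to 6. Endoderm against hPSC nucleus went from 3 to 5 on genes listed in all 4 tables. Member transcripts between ectoderm cytoplasm and nucleus went from 3 to 10 with DESeq2, and on TPM those between chromatin and nucleoplasm from 8 to 20 in hPSC, 8 to 23 in ectoderm and 5 to 14 in endoderm. Of all genes, TPM called 5337 in place of 8589 between ectoderm cytoplasm and nucleus and 7777 in place of 4302 between hPSC chromatin and nucleoplasm. Of all transcripts, DESeq2 and TPM called 10812 and 3545 in place of 5694 (ectoderm cytoplasm against nucleus), 5345 and 9640 in place of 2818 (hPSC chromatin against nucleoplasm), and 10616 and 15936 in place of 5789 (ectoderm chromatin against nucleoplasm). TPM was not run between cell types, whose tables were normalized separately.

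Without 1 library at a time, members called ranged from 1 to 2 for hPSC cytoplasm against nucleus, 1 to 2 for hPSC and 3 to 5 for endoderm chromatin against nucleoplasm, 3 to 6 for endoderm against hPSC nucleus and 2 to 4 for mesoderm against hPSC chromatin. Member transcripts ranged from 3 to 8 (ectoderm cytoplasm against nucleus), 0 to 3 (hPSC chromatin against nucleoplasm) and 5 to 7 (ectoderm chromatin against nucleoplasm). All genes called ranged from 2608 to 4378 for hPSC chromatin against nucleoplasm and 1504 to 3655 for the endoderm interaction. All transcripts called ranged from 3331 to 6837 and 7679 to 10286 for cytoplasm against nucleus in ectoderm and mesoderm, and 734 to 2316 and 3216 to 3711 for chromatin against nucleoplasm in hPSC and ectoderm. MEG3 outside ectoderm, IGF2 in hPSC and KCNQ1OT1 in endoderm are limited by counts.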

Other observations

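The single mesoderm nucleoplasm library entered no comparison. It held 325 CPM of SNHG14, below all 3 mesoderm nucleus libraries and all 3 chromatin libraries, and 459.8 CPM of SNRPN, above all of them. IGF2 stood there at 59.3 CPM, MEST at 352 CPM, PEG10 at 129 CPM, H19 at 19.7 CPM and KCNQ1OT1 at 13.7 CPM. MEG3 had no count there, which allows up to 0.187 CPM.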
